A study of Mus musculus with 6 samples.

Results

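Mitosis is driven by a set of genes whose transcripts build up as a cell leaves DNA replication and disappear after it divides, and 53 of them were followed here in mouse spleen. They were taken by gene symbol from a fixed list of mitotic kinases, kinesins, kinetochore, condensin and cytokinesis genes. The rule names genes by function and uses no measured value, but the list was chosen with earlier results of these data known. All 53 were found among the 31771 Ensembl gene identifiers of the count table, and all 53 passed the filter on low counts, which kept 19573 genes. The lowest level of any member in any library was 3.31 CPM, a unit in which each library has the same total.

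The mutant group was 3 spleens of the genotype VEC-Cre;SB Transposase; onc2, and the control group was 3 spleens labelled WT, all of the strain C57BL/6. In the mutants Cre recombinase is driven by the VE-cadherin promoter, which is active in endothelium, including endothelium from which blood cells descend. Cre releases the Sleeping Beauty transposase (SB), an enzyme that cuts a DNA transposon out of the genome and inserts it elsewhere. The onc2 transposon can switch on or interrupt the genes it lands in, so each mutant animal carries insertions of its own. Poly-A RNA of a piece of each spleen was sequenced to between 72902118 and 79258116 counts per library, to learn how the cellular make-up of the organ differed. Age is not given in the sources used here.

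The mutants did not form an even group. The biological coefficient of variation fitted across genes was 73.2% in mutants and 17.1% in controls. Libraries also differed in sex: Xist, transcribed from the inactive X chromosome, was at 1513, 580.1 and 0.586 CPM in mutants 1, 2 and 3, against 0.423 to 0.663 CPM in controls. Ddx3y, a gene of the Y chromosome, was at 0.0412, 0.0269 and 60.4 CPM in the same mutants, against 55.0 to 62.7 CPM in controls. Mutants 1 and 2 thus differed from the controls in sex as well as in genotype, which cannot be told apart in them, and mutant 3 matched the controls in these genes. The spleens also differed in their cells. The 8 B cell markers summed to between 40.2 and 93.8 CPM in mutants and between 5253 and 5905 CPM in controls.

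As background, entry into mitosis is set by cyclin B bound to the kinase CDK1, which CDC25 phosphatases switch on. Chromosomes are then compacted by condensin and topoisomerase II and attached through kinetochores to a spindle that kinesin motors build and slide. The spindle checkpoint holds the anaphase-promoting complex in check until every chromosome is attached, after which securin and cyclin B are destroyed, separase opens cohesin and the cell cleaves. In spleen such transcripts come from cells that divide there, which in mice include erythroid and myeloid precursors of the red pulp and activated lymphocytes.

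Mitotic transcripts were higher in mutant spleens in all role groups, each of which held at least 1 gene that passed. Of the 53 genes, 37 rose at an adjusted p under 0.05 and 0 fell, by edgeR's quasi-likelihood test with Benjamini-Hochberg adjustment, against 5.08% of all genes tested that rose and 6.9% that fell. At an unadjusted p under 0.05 edgeR gave 50 members higher, against 16.2% of all genes tested, and 0 lower. After adjustment DESeq2 and limma-voom also called 0 lower, while before adjustment limma-voom gave 1 lower. The median log2 fold change of mutant over control was 1.75 over the 53 genes, with a range of -0.72 to 2.25, beside a median of 0.10 over all genes tested (quartiles -0.61 and 0.70). A log2 fold change of at least 1 was reached by 49 members and by 17.4% of all genes tested. In CPM all 3 mutants lay above all 3 controls for 50 members, an arrangement that 18% of all genes tested showed. For 27 members the lowest mutant was at least 2-fold above the highest control, as for 2.76% of all genes tested. The plot of the 53 genes by library shows both groups side by side.

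**Figure D1:**
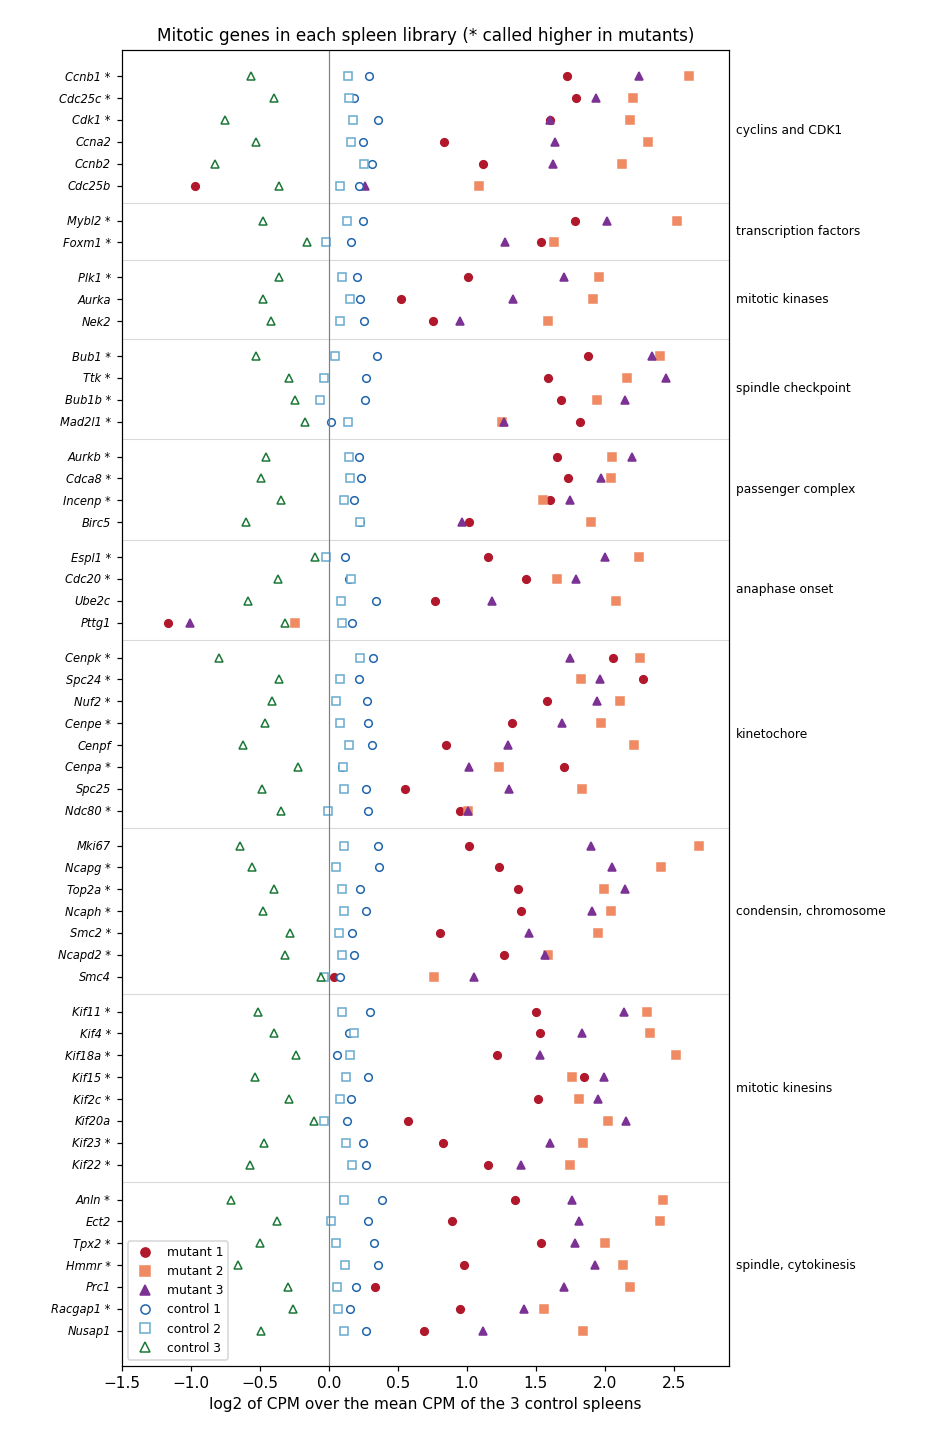
CPM of each of the 53 genes in each library, as log2 of the ratio to the mean of the 3 controls (horizontal axis), in role groups from top to bottom. Filled symbols are mutants, open symbols are controls and an asterisk marks the 37 genes called higher by edgeR. The mutants lie right of all controls except for Cdc25b, Pttg1 and Smc4, mutant 1 is the lowest mutant for 44 genes, and control 3 is the lowest control for all 53.

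These counts rest on all 3 controls being present. Without control 1, 2 or 3 edgeR called 0 members, with smallest adjusted p-values of 0.0532, 0.0715 and 0.0568, and 0.0294%, 0.0195% and 0.0392% of all genes were called higher. Before adjustment, p was under 0.05 for 50, 50 and 45 members with a higher level, against 9.46%, 9.39% and 8.63% of all genes. Without mutant 1, 2 or 3 edgeR called 49, 36 and 26 members, against 8.73%, 13.6% and 4.28% of all genes. DESeq2 called 50 members higher (10.3% of the genes it tested), limma-voom 37 (5.16%), limma-voom with variances set per group 15 (3.71%), and an edgeR test against a 2-fold change 2 (0.444%), which were Bub1b and Spc24. RNA from a whole piece of tissue cannot tell more dividing cells from more mitotic RNA per cell or from a loss of other cells. CPM are shares of each library, and B cell markers summed to a mean of 65.1 CPM in mutants and 5673 CPM in controls. Which of these applied was not tested.

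Promoters of mitotic genes are known for CCAAT boxes, bound by the factor NF-Y, and for the cell cycle genes homology region (CHR), bound by the DREAM and MMB complexes. The 250 bases before the annotated start were searched in RefSeq promoters of GRCm38.p6 for CCAAT and for the CHR letters TTTGAA on both strands, that is also as ATTGG and TTCAAA. Neighbouring matches may share letters, and each was then counted. A window was on hand for 44 of the 53 members, and those of Smc4, Kif20a, Foxm1, Aurkb, Spc24, Incenp, Ccna2, Tpx2 and Cdc25c were not used here. At least 1 CCAAT was found in 72.7% of the 44 and in 39.4% of the 12697 tested genes with a window, and 2 or more in 45.5% and 14.0%. The CHR letters were found in 36.4% of members and 13.5% of tested genes. Of the 56 other mitotic genes with a window 53.6% had a CCAAT, 28.6% had 2 or more and 35.7% had the CHR letters, and of the 17 DNA replication genes 70.6%, 35.3% and 17.6%. Both motifs together were found in 31.8% of members and in 4.95% of tested genes. Among the members called higher 71.0% had a CCAAT and 35.5% the CHR letters, beside 76.9% and 38.5% of those not called. Such matches describe the letters of these windows and do not show binding. The windows of 4 genes are printed 5′ to 3′ on the gene's strand, with the matches in capitals. They are shown as members that hold both motifs, 1 of them or neither, from windows that lie outside the GENCODE gene body. Top2a has 6 CCAAT and 2 CHR matches, Mki67 has 3 and 2, Bub1b, with the smallest p of all 53, has 1 and 0, and Nuf2 has 0 and 0. The windows of Top2a, Mki67 and Nuf2 lie on the minus strand at chr11:99024190-99024439, chr7:135716380-135716629 and chr1:169531465-169531714, and that of Bub1b on the plus strand at chr2:118597961-118598210.
Top2a: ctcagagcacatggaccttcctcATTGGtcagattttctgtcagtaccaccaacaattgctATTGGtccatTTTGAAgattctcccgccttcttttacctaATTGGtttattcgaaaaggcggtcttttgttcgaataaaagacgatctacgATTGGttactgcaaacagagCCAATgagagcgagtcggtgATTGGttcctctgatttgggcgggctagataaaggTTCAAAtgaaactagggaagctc
Mki67: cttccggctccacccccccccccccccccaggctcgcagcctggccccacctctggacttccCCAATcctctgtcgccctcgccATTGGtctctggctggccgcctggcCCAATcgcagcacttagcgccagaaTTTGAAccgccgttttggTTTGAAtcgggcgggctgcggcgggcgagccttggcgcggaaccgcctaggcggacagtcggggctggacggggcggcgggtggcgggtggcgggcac
Bub1b: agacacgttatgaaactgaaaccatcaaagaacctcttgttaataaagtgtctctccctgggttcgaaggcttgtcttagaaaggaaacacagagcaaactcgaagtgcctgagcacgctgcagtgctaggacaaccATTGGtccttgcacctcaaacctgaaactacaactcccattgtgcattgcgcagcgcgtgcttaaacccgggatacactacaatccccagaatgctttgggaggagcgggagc
Nuf2: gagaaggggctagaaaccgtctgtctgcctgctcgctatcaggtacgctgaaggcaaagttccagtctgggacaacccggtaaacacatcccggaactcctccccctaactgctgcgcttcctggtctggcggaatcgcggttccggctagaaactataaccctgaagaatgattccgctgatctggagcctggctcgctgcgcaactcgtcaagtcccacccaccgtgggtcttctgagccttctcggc

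Counts of genes that rose in each role group stand beside 5.08% of all genes tested that edgeR called higher. The cyclin and CDK1 group held the member with the largest rise. Ccnb1 (chr13:100778650-100786570), which encodes cyclin B1, was at 73.3, 136 and 105 CPM in mutants 1, 2 and 3, against 27.1, 24.4 and 15.0 CPM in controls 1, 2 and 3. Every mutant lay above every control, and the log2 fold change was 2.25 ± 0.36 (SE, adjusted p = 0.0187) by edgeR. Cdc25c, one of the phosphatases that activate CDK1, was at 16.6, 22.1 and 18.3 CPM in mutants, against 5.43, 5.30 and 3.65 CPM in controls, a log2 change of 1.997 ± 0.31 (SE, adjusted p = 0.0165) by edgeR. The kinase gene Cdk1 itself rose, with means of 130.3 ± 32.0 CPM in mutants and 36.9 ± 13.3 CPM in controls (SD, n = 3 each). Cdc25b, a phosphatase that acts at the onset of mitosis, was spread widely among the mutants. It was at 75.9, 316 and 178 CPM in mutants, against 173, 158 and 116 CPM in controls, so mutant 1 was below every control and the other mutants above. Its log2 fold change was 0.38 ± 0.53 (SE, adjusted p = 0.66) by edgeR, and -0.27 without mutant 2 (adjusted p = 0.654). Ccna2 and Ccnb2, for cyclins A2 and B2, lay above the controls in every mutant but did not pass, with log2 values of 1.74 and 1.69 and adjusted p-values of 0.0595 and 0.0554 by edgeR.

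Both transcription factor genes of the set rose. Foxm1 (chr6:128362967-128376146) encodes a forkhead factor that activates genes of the G2 and M phases. It was at 62.7, 66.9 and 52.3 CPM in mutants, against 24.2, 21.3 and 19.4 CPM in controls, a log2 change of 1.502 ± 0.21 (SE, adjusted p = 0.0133) by edgeR. Mybl2 (chr2:163054687-163084688) encodes B-MYB, the subunit that turns the MuvB core into the activating MMB complex. It was at 55.3, 92.2 and 64.8 CPM in mutants, against 19.1, 17.6 and 11.5 CPM in controls, a log2 change of 2.16 ± 0.33 (SE, adjusted p = 0.0167) by edgeR. The 3 Foxm1 values of the mutants were close to each other, while Mybl2 was highest in mutant 2.

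Of the mitotic kinases only Plk1, Polo-like kinase 1, passed among the 3 grouped here, Aurkb and Cdk1 being counted elsewhere. Plk1 was at 46.9, 90.5 and 76.1 CPM in mutants, against 26.9, 24.9 and 18.2 CPM in controls, a log2 change of 1.62 ± 0.33 (SE, adjusted p = 0.0314) by edgeR. Nek2, a kinase that splits centrosomes, was at 30.7, 54.7 and 35.2 CPM in mutants, against 21.8, 19.3 and 13.6 CPM in controls, and Aurka, the spindle pole kinase, at 37.3, 97.9 and 65.4 CPM in mutants, against 30.3, 28.9 and 18.6 CPM in controls. In both genes the groups did not overlap, mutant 1 was the lowest mutant, and edgeR gave log2 values of 1.16 ± 0.34 (SE, adjusted p = 0.078) for Nek2 and 1.39 ± 0.43 (SE, adjusted p = 0.0866) for Aurka.

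All 4 spindle checkpoint genes rose, with coefficients of variation among mutants of 15.8% to 28.5%. Bub1b (chr2:118598211-118641591), which encodes the checkpoint protein BUBR1, had the smallest p of the 53 genes. It was at 73.9, 88.5 and 102 CPM in mutants, against 27.6, 22.0 and 19.4 CPM in controls, a log2 change of 1.94 ± 0.23 (SE, adjusted p = 0.00907) by edgeR. Its kinase partner Bub1 was at 28.7, 41.0 and 39.4 CPM in mutants, against 9.95, 8.03 and 5.40 CPM in controls, a log2 change of 2.23 ± 0.33 (SE, adjusted p = 0.0152). Ttk, the gene of the kinase MPS1 that starts the signal, was at 15.6, 23.3 and 28.3 CPM in mutants, against 6.27, 5.08 and 4.26 CPM in controls, a log2 change of 2.11 ± 0.33 (SE, adjusted p = 0.0168). In each of these every mutant was more than 2-fold above the highest control. Mad2l1, for the MAD2 protein that binds CDC20, rose by a log2 value of 1.48 ± 0.22 (SE, adjusted p = 0.0156) and was highest in mutant 1. Summed over the 4 genes the level was 227, 227 and 244 CPM in mutants, against 75.1, 69.2 and 56.4 CPM in controls.

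In the chromosomal passenger complex, which corrects faulty attachments, 3 of 4 genes rose. Incenp, its scaffold, was at 195, 188 and 215 CPM in mutants, against 72.8, 69.2 and 50.5 CPM in controls, a log2 change of 1.64 ± 0.21 (SE, adjusted p = 0.0105) by edgeR. Cdca8, for borealin, was at 119, 148 and 140.4 CPM in mutants, against 42.2, 39.9 and 25.5 CPM in controls, a log2 change of 1.93 ± 0.27 (SE, adjusted p = 0.0133). The kinase gene Aurkb rose by a log2 value of 1.99 ± 0.28 (SE, adjusted p = 0.0134). The mutants were close to each other in Incenp and Cdca8. Birc5, for survivin, was at 126, 232 and 122 CPM in mutants, against 73.1, 72.8 and 41.2 CPM in controls. Its groups did not overlap, mutant 2 stood above the other mutants, and the log2 value of 1.38 ± 0.40 (SE, adjusted p = 0.075) by edgeR did not pass.

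The anaphase onset genes were split. Cdc20, which activates the anaphase-promoting complex and is the target of the checkpoint, was at 79.4, 93.1 and 102 CPM in mutants, against 32.7, 33.0 and 23.0 CPM in controls, a log2 change of 1.63 ± 0.23 (SE, adjusted p = 0.0134) by edgeR. Espl1, for the protease separase, was at 48.3, 103 and 86.9 CPM in mutants, against 23.6, 21.4 and 20.3 CPM in controls, a log2 change of 1.89 ± 0.33 (SE, adjusted p = 0.0223). Both lay above the controls in all mutants, and Espl1 was lowest in mutant 1 among them. Pttg1 (chr11:43420250-43426251), for securin, which holds separase inactive until anaphase, had the only negative value of the 53 genes. It was at 26.1, 49.1 and 29.0 CPM in mutants, against 65.6, 62.4 and 46.8 CPM in controls. Mutants 1 and 3 lay below every control and mutant 2 between controls 3 and 2. The log2 value was -0.72 ± 0.33 (SE, adjusted p = 0.199) by edgeR, which did not pass. Without mutant 2 it was -1.12 with an adjusted p of 0.0206 by edgeR, and Pttg1 was then the only member called lower. Per kilobase of exon, the level of Pttg1 was 17.4 ± 6.26 CPM in mutants and 29.1 ± 5.03 CPM in controls, and that of Espl1 was 9.08 ± 3.22 CPM in mutants and 2.49 ± 0.193 CPM in controls (SD, n = 3 each). Ube2c, for the ubiquitin-conjugating enzyme of the complex, averaged 313 ± 152 CPM in mutants and 114 ± 34.9 CPM in controls, and its log2 value of 1.48 ± 0.46 (SE, adjusted p = 0.0864) did not pass.

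Kinetochore genes rose in 6 of 8 cases. Spc24 (chr9:21755442-21760303) encodes a subunit of the NDC80 complex, which grips the end of the microtubule. It was at 54.5, 39.9 and 44.0 CPM in mutants, against 13.1, 11.9 and 8.78 CPM in controls, a log2 change of 2.03 ± 0.25 (SE, adjusted p = 0.00944) by edgeR. Nuf2, of the same complex, was at 56.3, 80.9 and 72.5 CPM in mutants, against 22.8, 19.5 and 14.1 CPM in controls, a log2 change of 1.90 ± 0.28 (SE, adjusted p = 0.0152). Both were more than 2-fold above the highest control in every mutant. Spc25, also of that complex, was at 20.5, 50.2 and 34.7 CPM in mutants, against 17.0, 15.1 and 10.03 CPM in controls, and did not pass, at a log2 value of 1.34 ± 0.42 (SE, adjusted p = 0.0882) by edgeR. Ndc80 had the smallest log2 change of any called member, 0.99, and was level across the mutants. Per kilobase of exon the 4 subunits averaged 17.9, 11.02, 11.02 and 5.72 CPM in mutants for Spc24, Nuf2, Spc25 and Ndc80, and 4.38, 2.97, 4.40 and 2.88 CPM in controls in the same order. Cenpa, the histone H3 variant that marks centromeres, rose by a log2 value of 1.36 ± 0.24 (SE, adjusted p = 0.0234) and was highest in mutant 1. Cenpk, of the inner kinetochore, and Cenpe, a kinetochore kinesin, rose by 2.04 and 1.70 on the log2 scale. Cenpf, of the outer kinetochore, reached 1.59 with an adjusted p of 0.0775 by edgeR and did not pass.

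Among condensin and chromosome structure genes 5 of 7 rose. Ncapd2, a regulatory subunit of condensin I, was at 286, 357 and 350.3 CPM in mutants, against 134, 126 and 95.0 CPM in controls, a log2 change of 1.49 ± 0.23 (SE, adjusted p = 0.0164) by edgeR. Top2a (chr11:98992943-99024189), for the topoisomerase that untangles sister chromatids, was at 300.3, 462 and 514 CPM in mutants, against 136, 124 and 88.4 CPM in controls, a log2 change of 1.88 ± 0.30 (SE, adjusted p = 0.0188). Every mutant was above every control in both genes. The other condensin I subunits Ncapg and Ncaph rose by 1.99 and 1.82, and the ATPase subunit Smc2 by 1.498 on the log2 scale. Smc4, the partner of Smc2 in both condensins, was at 157, 260.2 and 317 CPM in mutants, against 162, 149.7 and 147 CPM in controls. Mutant 1 lay among the controls and the other mutants above them, and the log2 value of 0.69 ± 0.28 (SE, adjusted p = 0.16) did not pass, although it did without mutant 1 (0.94, adjusted p = 0.0171 by edgeR). Per kilobase of exon Smc2 averaged 20.0 ± 7.58 CPM in mutants and 7.19 ± 1.12 CPM in controls, and Smc4 47.0 ± 15.5 CPM in mutants and 29.4 ± 1.55 CPM in controls (SD, n = 3 each). Mki67 encodes Ki-67, which coats mitotic chromosomes and is the common stain for cycling cells; its values are set out because of that use. It was at 559, 1768 and 1027 CPM in mutants, against 353, 297 and 177 CPM in controls. Mki67 was the most abundant member in CPM, and its mutants stood at 2.03, 6.41 and 3.72 times the control mean. The log2 value of 2.05 ± 0.53 (SE, adjusted p = 0.0578) by edgeR did not pass.

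Of the mitotic kinesins 7 of 8 rose. Kif2c, which takes microtubules apart at the centromere, was at 34.3, 42.2 and 46.4 CPM in mutants, against 13.5, 12.8 and 9.85 CPM in controls, a log2 change of 1.78 ± 0.24 (SE, adjusted p = 0.012) by edgeR. Kif15, which helps keep the spindle poles apart, was at 66.2, 62.0 and 73.2 CPM in mutants, against 22.4, 20.0 and 12.7 CPM in controls, a log2 change of 1.87 ± 0.27 (SE, adjusted p = 0.0142). Every mutant was more than 2-fold above the highest control in both. Kif11, the main spindle-pole separating motor, and Kif4, a chromokinesin, rose by 2.03 and 1.95, Kif18a, which shortens chromosome movements, by 1.90, Kif23, the motor of centralspindlin, by 1.495, and Kif22, a chromokinesin, by 1.46 on the log2 scale. Kif20a, a motor of the midzone in anaphase, was at 13.1, 35.9 and 39.3 CPM in mutants, against 9.66, 8.62 and 8.19 CPM in controls. It was near the controls in mutant 1 and far above them in the other mutants, and did not pass, at a log2 value of 1.75 ± 0.44 (SE, adjusted p = 0.0546).

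Spindle assembly and cytokinesis genes rose in 4 of 7 cases. Tpx2, which activates Aurora A on the spindle, was at 123, 171 and 147 CPM in mutants, against 53.6, 44.2 and 30.2 CPM in controls, a log2 change of 1.80 ± 0.29 (SE, adjusted p = 0.0188) by edgeR. Racgap1, the centralspindlin partner of Kif23, was at 85.1, 130.0 and 117 CPM in mutants, against 49.2, 46.2 and 36.9 CPM in controls, a log2 change of 1.34 ± 0.25 (SE, adjusted p = 0.0255). Both had groups that did not overlap. Anln, for the cleavage furrow protein anillin, and Hmmr, for a spindle pole protein, rose by 1.93 and 1.77 on the log2 scale. Prc1, which bundles midzone microtubules, was at 19.1, 68.7 and 49.5 CPM in mutants, against 17.4, 15.8 and 12.4 CPM in controls, with mutant 1 just above control 1, and did not pass, at a log2 value of 1.62 ± 0.50 (SE, adjusted p = 0.0858). Nusap1, a spindle protein, and Ect2, which activates RhoA for cleavage, reached 1.32 and 1.85 with adjusted p-values of 0.0817 and 0.0506 by edgeR.

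The 16 members that did not pass were of 2 kinds. In Cdc25b, Pttg1 and Smc4 the groups overlapped. In the other 13 every mutant was above every control, as for 18% of all genes tested. Their log2 values were 1.16 to 2.05 and their adjusted p-values 0.0506 to 0.0882 by edgeR. DESeq2 called all 13 higher, against 10.3% of the genes it tested. The coefficient of variation among mutants had a median of 48.2% over these 13 and of 21.9% over the 37 called, whose log2 values ran from 0.99 to 2.25. Because p depends on that spread, dividing the genes by p itself favours this difference.

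Levels of different genes can be set side by side only per length. In mutants the mean per kilobase of merged exon ran from 2.12 ± 1.06 CPM for Kif18a to 120.3 ± 58.4 CPM for Ube2c, with 111 ± 60.6 CPM for Mki67 and 94.9 ± 32.5 CPM for Ccnb2 next below the highest. In controls it ran from 0.583 ± 0.0794 CPM for Kif18a to 44.0 ± 13.4 CPM for Ube2c, with 39.9 ± 7.89 CPM for Cdc25b next (mean ± SD, n = 3 each). The leading 3 in mutants lay within their SDs of each other, as did the leading pair in controls. Cdc25b, Smc4 and Pttg1 were among the 6 highest in controls, and stand nearest the line of equal levels in the plot of levels per length.

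**Figure D2:**
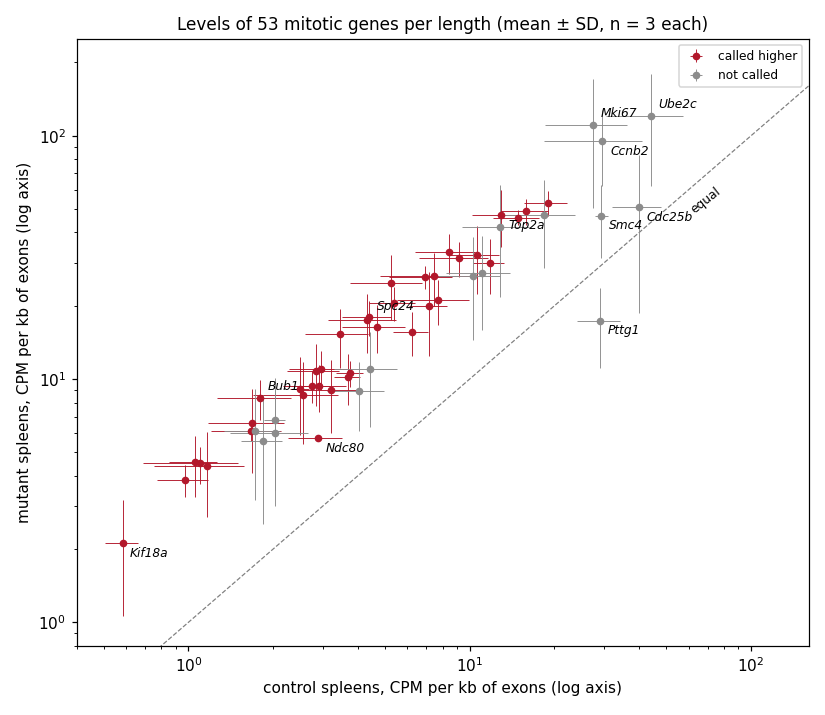
Mean level of each of the 53 genes in mutant spleens (vertical axis) and control spleens (horizontal axis), in CPM per kilobase of merged exon, both on log axes, with SD over 3 animals each. Red points were called higher by edgeR and grey points were not; the dashed line marks equal levels, and 1 gene, Pttg1, lies below it.

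The 3 mutants differed in how far mitotic genes stood out. The 53 genes summed to 4548, 8239.8 and 6348 CPM in mutants 1, 2 and 3, against 2549, 2312 and 1617 CPM in controls 1, 2 and 3. Mutant 2 had the highest value for 39 members, mutant 3 for 11 and mutant 1 for 3, which were Cenpa, Mad2l1 and Spc24. Over all genes tested the highest mutant was mutant 2 for 30.9%, mutant 3 for 33.0% and mutant 1 for 36.1%. Mutant 1 had the lowest mutant value for 44 members, as it did for 35.5% of all genes tested. In mutant 1 the median ratio to the control mean was 3.37 for the spindle checkpoint and 3.09 for the passenger complex, but 1.68 for the mitotic kinases and 1.93 for spindle assembly and cytokinesis. In mutant 2 the same medians were 4.16, 3.92, 3.77 and 4.37. Over the 53 genes the median ratio was 2.42, 4.005 and 3.35 in mutants 1, 2 and 3. Levels above every control were found for 50 members in mutant 1, and for 52 each in mutants 2 and 3. Over all genes tested the shares above every control were 42.7% in mutant 1, 36.5% in mutant 2 and 43.5% in mutant 3. Control 3 was the lowest control for all 53 members, as for 25.1% of all genes tested.

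Genes of DNA replication, which precede mitosis in the cycle, also rose, in 17 of 20 cases, against 5.08% of all genes tested. Their median log2 value was 1.64. Pola1, of the polymerase that starts new strands, had a log2 change of 1.94 ± 0.19 (SE, adjusted p = 0.00598) by edgeR. Their sum was 3010.5, 3792 and 3027 CPM in mutants, against 1300.5, 1259 and 942 CPM in controls. The ratio of the mitotic sum to the replication sum was 1.51, 2.17 and 2.10 in mutants, against 1.96, 1.84 and 1.72 in controls. Mutant 1 was thus below all controls in this ratio, and the other mutants above all of them.

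Of 66 further mitotic genes in 6 lists, 41 rose and 0 fell by edgeR, beside 5.08% and 6.9% of all genes tested. Like the members, these lists were chosen by function with earlier results known. The median log2 value was 1.55, and in 62 genes the mutants lay above all controls, as in 18% of all genes tested. At an unadjusted p under 0.05 edgeR gave 60 higher, against 16.2% of all genes tested, and 0 lower. DESeq2 and limma-voom called 0 lower. Kinetochore genes gave 14 of 21, among them Cenpp, of the inner kinetochore, by 2.29 and Nsl1, of the MIS12 complex, by 1.45 on the log2 scale. Checkpoint genes gave 5 of 10, with Zwilch and Kntc1, both of the complex that brings dynein to kinetochores, at 2.05 and 2.09. Bub3, the most abundant of those, did not pass (0.68, adjusted p = 0.0512 by edgeR). Spindle and cytokinesis genes gave 9 of 11, led by Iqgap3, a scaffold protein, and Cit, for citron kinase, at 2.51 and 1.79. Entry and exit regulators gave 8 of 13, with Melk, a kinase, and the phosphatase gene Cdc25a at 1.94 and 1.34. Condensin and chromosome genes gave 4 of 7, with Cdca2, which recruits a phosphatase to chromatin, and Cdca5, for the cohesin protector sororin, at 1.94 and 1.59. Mitotic kinesins outside the 53 gave 1 of 4, Kif20b, at 1.54. The plot of these lists sets them beside related genes.

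**Figure D3:**
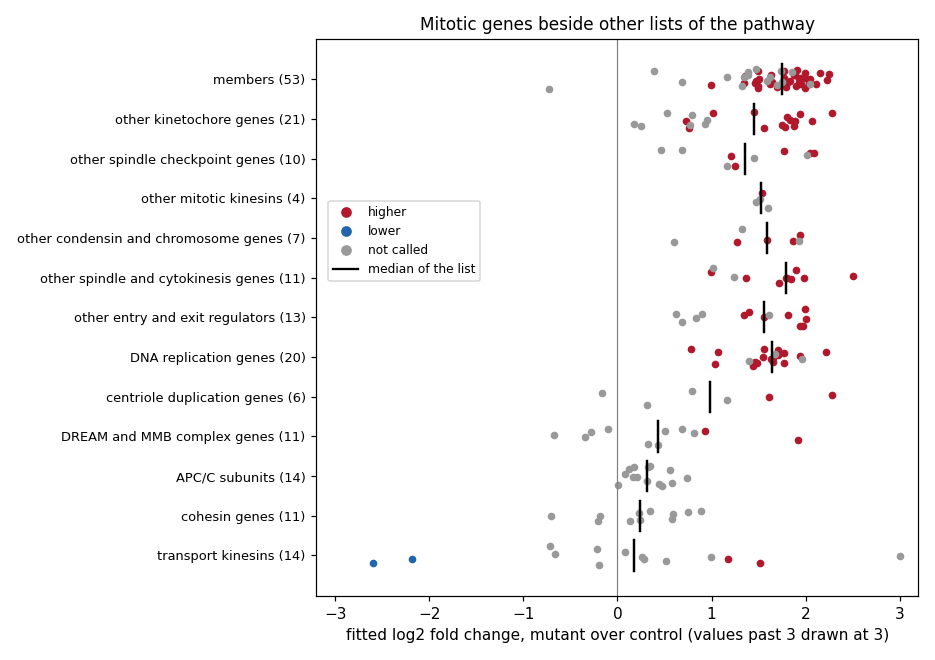
Fitted log2 fold change of mutant over control (horizontal axis) for each tested gene of 13 lists (rows, with the number tested), with red for called higher, blue for called lower, grey for not called and a black bar at each list's median; a value past 3 is drawn at 3. The medians of the 53 genes, the 6 other mitotic lists and DNA replication lie between 1.35 and 1.79, and those of the anaphase-promoting complex, cohesin and transport kinesins between 0.17 and 0.32.

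Machinery that mitosis shares with the rest of the cell cycle or with other work was counted as well. Of all genes tested edgeR called 5.08% higher and 6.9% lower, with 16.2% higher at an unadjusted p under 0.05. Of the 14 subunits of the anaphase-promoting complex edgeR called 0 in either direction, with a median log2 value of 0.32. At an unadjusted p under 0.05 it gave 3 higher and 0 lower, and DESeq2 and limma-voom called 0. Anapc5, the most abundant, was at 511, 446 and 409 CPM in mutants, against 349.7, 337 and 329 CPM in controls, a log2 value of 0.44 ± 0.18 (SE, adjusted p = 0.166) by edgeR. Of 11 cohesin genes edgeR likewise called 0, with a median of 0.24, 3 higher and 0 lower at an unadjusted p under 0.05, 1 called higher by DESeq2 and 0 by limma-voom. The ring subunits Smc1a and Smc3 had log2 values of 0.89 and 0.58. Centriole duplication gave 2 of 6 higher, Plk4, the kinase that starts duplication, and Stil, its partner, at 1.61 and 2.28. Of 11 DREAM and MMB genes, Tfdp1, the partner of E2F factors, and Rbl1, for the pocket protein p107, rose by 1.92 and 0.93 and 0 fell. Kinesins listed as transport motors moved both ways: of 14, Kif2a and Kif13a rose by 1.52 and 1.17. Kif21b and Kif21a fell, with log2 values of -2.19 and -2.59. Kif2a, a close relative of Kif2c, takes microtubules apart rather than carrying cargo. The 14 log2 values ran from -2.59 to 9.65, and the gene at the top was not called by edgeR. Of 5 germline relatives of mitotic genes found, 3 passed the filter and edgeR called 1 higher, Rec8, the cohesin subunit of meiosis. Rec8 was at 62.7, 25.05 and 46.3 CPM in mutants, against 10.2, 10.9 and 12.8 CPM in controls, a log2 change of 1.98 ± 0.34 (SE, adjusted p = 0.0209) by edgeR.

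Markers of cell types that divide in spleen moved with the mitotic genes in part. The counts below stand beside 5.08% of all genes tested that edgeR called higher. Erythroid precursor markers summed to 1105, 7054 and 3406 CPM in mutants, against 1577, 1390.5 and 730.1 CPM in controls. In mutant 1 that sum lay inside the range of the controls. Of these 10 markers 2 passed, Tal1 and Epor, and the median log2 value was 2.02. At an unadjusted p under 0.05 edgeR gave 6 higher, against 16.2% of all genes tested. DESeq2 called 6 higher (10.3% of the genes it tested) and limma-voom 1 (5.16%). Granulocyte precursor markers summed to 582, 365 and 402 CPM in mutants, against 58.3, 33.7 and 25.7 CPM in controls, with 5 of 7 higher, among them Ctsg and Ms4a3. Stem and progenitor markers summed to 1253, 510.0 and 424 CPM in mutants, against 178, 169 and 185 CPM in controls. Of these 8 edgeR called 0, with 2 higher and 1 lower at an unadjusted p under 0.05 and the same counts by DESeq2, and limma-voom called 0 higher and 1 lower. Megakaryocyte markers summed to 2996, 1049.9 and 4822 CPM in mutants, against 561, 609.9 and 327 CPM in controls, with 3 of 6 higher, among them Pf4 and Vwf. Control 3, the lowest control in the mitotic genes, was also lowest in the erythroid, granulocyte and megakaryocyte sums. The part of these cells in the mitotic difference was not tested.

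Lymphocyte markers moved the other way, where 6.9% of all genes tested were called lower by edgeR. All 8 B cell markers fell, with log2 values between -5.10 and -8.13. T cell markers summed to 31.8, 282 and 26.0 CPM in mutants, against 859, 721 and 828 CPM in controls. By edgeR 3 of 8 fell, Ccr7, Lef1 and Lck, and the median log2 value was -3.83. DESeq2 and limma-voom each called 7 of the 8 lower, against 2640 of 23687 and 1991 of 19573 genes over all. Among the remaining lists, red pulp macrophage markers summed to 163, 2855 and 560.0 CPM in mutants, against 742, 1045 and 1081 CPM in controls, with 0 of 6 called by edgeR or DESeq2 and 0 with an unadjusted p under 0.05. Endothelial markers summed to 314, 262.1 and 497 CPM in mutants, against 414, 449 and 453 CPM in controls. Of these 6, Egfl7 rose and Pecam1 fell, and the median log2 value was 0.86, with 5 above 0. Stroma and muscle markers summed to 106, 356 and 253 CPM in mutants, against 369, 319.9 and 424 CPM in controls, and 3 of 7 fell, with a median log2 value of -1.41. The plot of summed markers shows the lists in each library.

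**Figure D4:**
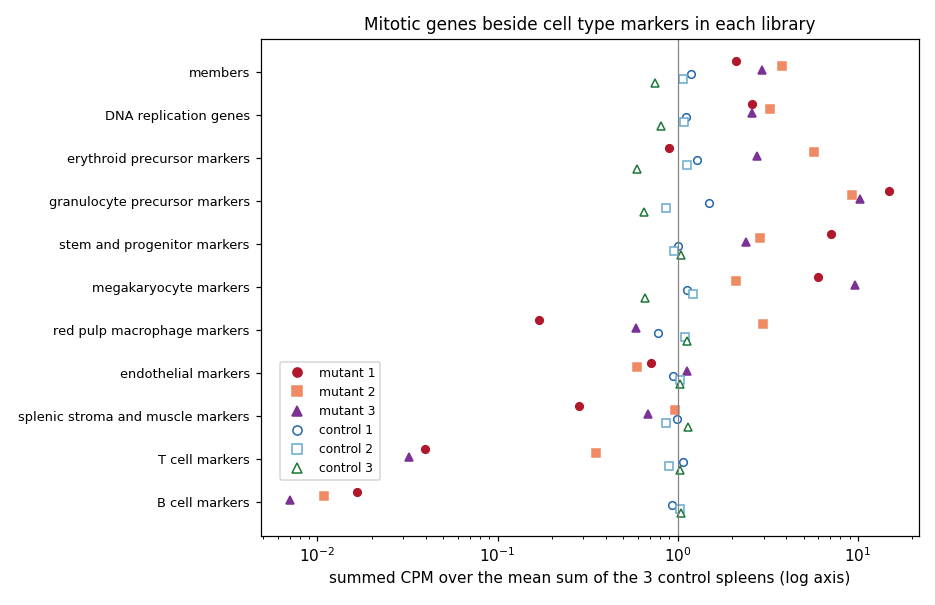
Summed CPM of the 53 genes, of DNA replication genes and of the markers of 9 cell types (rows) in each library, as the ratio to the mean sum of the 3 controls on a log axis, with filled symbols for mutants and open symbols for controls. Erythroid markers of mutant 1 lie at 0.90 of the control mean, where its mitotic sum is at 2.11, and B cell markers of all mutants lie near 0.01.

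Exons of 19 of the 53 genes overlap exons of another gene in the annotation, 16 with one on the opposite strand and 3 on the same strand, and counts of these are uncertain because the strand setting of the counting is not given. Among the genes that did not pass, Ccna2, Cdc25b, Nek2, Ube2c, Kif20a, Nusap1 and Prc1 are of this kind. The others of this kind were called higher: Cdc25c, Foxm1, Plk1, Cdca8, Cdc20, Cenpk, Ncapd2, Ncapg, Top2a, Kif18a, Kif22 and Kif4. Ccnb1, Ccnb2, Kif22 and Kif4 each have an annotated pseudogene that bears their name, and reads could be divided with it.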

How the data were processed

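RNA-seq of 3 mutant and 3 control spleens was analysed from whole-number counts per Ensembl gene that the authors deposited without normalization. Per the submitters' processing notes, which assign no roles, the tools and builds were STAR 2.5.3a, limma, mm10 and GRCm38. Libraries were poly-A selected with a strand-marking kit, per the labels' protocols. Of 31771 identifiers 31669 matched a symbol. Testing used edgeR 4.0.16 in R 4.3.3 (TMM scaling, filterByExpr by group, robust glmQLFit, glmQLFTest), adjusted by Benjamini-Hochberg over the 19573 genes kept. Each SE was obtained as the log2 value over the root of F. CPM carry no TMM factor, and levels per kilobase use merged exon length (GENCODE M21, GRCm38). The procedure was tested on data simulated with the spread of the controls in both groups. That test does not cover the wider spread among the mutants. Groups came from the genotype label, and replicate numbers only name animals.

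The members and lists were chosen with earlier results of these data known. Full values go to the 2 members with the smallest p and the 1 with the largest p in each role group. Of the other lists, which held 272 genes found of 274 together with the members, the 2 genes with the smallest p and the most abundant may be named. Mki67, Xist, Ddx3y, Kif13a and Kif21a were given values after these had been seen, as was the choice of promoters printed. Alternatives were limma-voom (limma 3.58.1) in 3 forms, DESeq2 1.42.0, scaling by RLE or by upper quartile, other filters, haemoglobin and immunoglobulin genes left out, a 2-fold test and each library left out. Protein sequences were not analysed here. Some values of the marker lists are not reported here.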

Additional observations from a re-analysis of the deposited data

How the results depend on the processing

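The 37 members called higher became 33 to 38, or 50 by DESeq2, under 8 of the settings that keep all libraries. They became 15 with variances set per group in limma-voom and 2 in the test against a 2-fold change, and ranged from 0 to 49 with each library left out, with 0 for each of the controls. Members called lower ranged from 0 to 1 with each library left out, the 1 being Pttg1 without mutant 2. The log2 value of Cdc25b ranged from -0.27 without mutant 2 to 0.78 without mutant 1, and the cause was not tested. Called in edgeR's test, under 9 other settings with all libraries and without each mutant in turn were 13 members: Aurkb, Bub1, Bub1b, Cdc25c, Espl1, Foxm1, Kif2c, Kif4, Mad2l1, Mybl2, Nuf2, Spc24 and Ttk. Upper-quartile scaling moved the median log2 value of all genes by -0.10 and set that of the members to 1.64, and limma-voom moved the median of all genes by -0.12.

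The 41 other mitotic genes called higher became 23 with variances set per group and 4 against a 2-fold change, and 0 to 54 with each library left out. Over all genes, calls of higher were 2444 by DESeq2, 1842 with sample weights in limma-voom, 87 against a 2-fold change and 4 to 2794 with each library left out. Calls of lower were 2640 by DESeq2, 786 with variances set per group, 541 against a 2-fold change and 119 to 3137 with each library left out. No paired analysis was possible because replicate numbers follow accession order and pair no mutant with a control.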
